A study of Mus musculus with 3 samples.

Results

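The EHD family comprises the genes *Ehd1*, *Ehd2*, *Ehd3* and *Ehd4*, and the description below also takes in *Pacsin2* and *Pacsin3*, whose products work with EHD proteins. Members were found by symbol, as probe sets that the platform annotation assigns to a single gene. All 6 genes were found, with 1 probe set each, among 21789 probe sets that name a single gene and stand for 19938 genes. The cells were GEC, the endothelial cells that line the filtering capillaries of the kidney glomerulus, from adult mice. They came from transgenic *Tie2-GFP* mice, line Tg(TIE2GFP)287Sato on a mixed and mainly CD-1 background, sex unknown, which express green fluorescent protein under the *Tek* (*Tie2*) promoter, active in endothelium. Glomeruli were sieved and dissociated, and GFP positive cells were sorted. There were 3 Affymetrix Mouse Gene ST arrays, labelled replicates 1, 3 and 5, each from 1 kidney that was not pooled, and they form 1 group of normal adult GEC. There was no other group, so each gene was compared with a detection level and not with other cells.

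EHD proteins are ATPases related to dynamin that bind and bend membranes. Their C-terminal EH domain recognises short asparagine-proline-phenylalanine motifs in partner proteins, and through these partners EHD proteins guide receptors from endosomes back to the cell surface. The *Caenorhabditis elegans* member, RME-1, is needed for the recycling of yolk receptors. In mammals EHD1 acts at the recycling endosome, EHD3 between the early endosome and the recycling endosome or Golgi, EHD4 at the early endosome, and EHD2 at the neck of caveolae, the flask-shaped pits that are abundant in endothelium. PACSIN proteins, also called syndapins, carry an F-BAR domain that senses and shapes curved membrane, and they bind dynamin. *Ehd3* is a known gene of glomerular endothelium in the kidney.

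Promoter sequences are shown for the 3 members whose level moved most between arrays, so that the regions before their start sites can be read beside their values. RefSeq promoters of the assembly GRCm38.p6 were matched for 5 of the 6 members. Those shown run from 250 bases before to 50 bases after the gene's start and is written 5′ to 3′ on the gene's strand. Capitals mark matches on either strand to CCAAT and to the GC box, spelled GGGCGG, which do not overlap here. The *Ehd3* promoter lies at chr17:73804591-73804890 (plus strand), that of *Ehd4* at chr2:120154526-120154825 (minus strand) and that of *Ehd2* at chr7:15967486-15967785 (minus strand).
Ehd3: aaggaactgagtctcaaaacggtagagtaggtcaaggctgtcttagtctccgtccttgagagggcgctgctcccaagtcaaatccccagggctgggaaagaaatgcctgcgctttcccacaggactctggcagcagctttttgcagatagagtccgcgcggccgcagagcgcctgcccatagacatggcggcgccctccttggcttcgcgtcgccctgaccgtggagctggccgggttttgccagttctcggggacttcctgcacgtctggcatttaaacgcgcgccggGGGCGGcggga
Ehd4: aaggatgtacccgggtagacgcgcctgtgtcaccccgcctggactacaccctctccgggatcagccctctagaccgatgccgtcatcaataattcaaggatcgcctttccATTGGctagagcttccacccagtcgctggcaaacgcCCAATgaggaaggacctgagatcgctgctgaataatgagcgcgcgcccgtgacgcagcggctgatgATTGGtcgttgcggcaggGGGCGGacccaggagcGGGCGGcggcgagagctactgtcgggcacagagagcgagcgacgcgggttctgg
Ehd2: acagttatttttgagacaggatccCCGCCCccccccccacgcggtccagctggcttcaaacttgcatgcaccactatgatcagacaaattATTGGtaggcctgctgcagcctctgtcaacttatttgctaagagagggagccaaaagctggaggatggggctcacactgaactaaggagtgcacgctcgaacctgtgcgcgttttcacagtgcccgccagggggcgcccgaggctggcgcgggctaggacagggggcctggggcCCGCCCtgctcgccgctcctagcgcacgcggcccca

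The *Ehd3* promoter held no CCAAT letters and 1 GC box, close to its end. The *Ehd4* promoter held 3 CCAAT matches and 2 GC boxes, and that of *Ehd2* held 1 CCAAT match and 2 GC boxes. Over 32851 mouse promoters of the same length, 37.4% held CCAAT and 35.7% held GGGCGG on either strand. CpG dinucleotides numbered 24 in the *Ehd3*, 29 in the *Ehd4* and 18 in the *Ehd2* promoter, and 20%, 12.9% and 29.7% of all promoters had at least as many. The ETS letters CCGGAA (in 14.9% of all promoters), the GATA letters AGATAA (11.2%) and TATAAA (13.6%) were not found on either strand of these 3 promoters. The shorter ETS core GGAAG, which 71.4% of promoters hold, was found 1 time in *Ehd3*, 2 times in *Ehd4* and 0 times in *Ehd2*. Such matches describe the letters only, and these windows are short.

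Of the 6 members, 3 were called above the detection level of 100 (6.64 on the log2 scale), 2 below it and 1 neither. *Ehd3*, *Ehd4* and *Pacsin2* were above, *Ehd1* and *Pacsin3* below, and *Ehd2* neither. Over all probe sets tested, 15.8% were called above, 72.5% below and 11.6% neither. The test was limma against the level, two-sided, with Benjamini-Hochberg adjustment over all 21789 probe sets. The number 100 is that of the study's filter on raw values. Levels below are deposited log2 signals, given as mean ± SD over the 3 arrays (n = 3). Signals of different probe sets depend on their probes, so each gene is set against the level and against its own values on the other arrays, and not against another gene.

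*Ehd3* (probe set 10446777) had 10.60, 9.51 and 11.00 on replicates 1, 3 and 5, a mean of 10.37 ± 0.77. These are 1553, 730.0 and 2051 on the linear scale. All arrays were far above the level, with a mean difference of 3.73 on the log2 scale (adjusted p = 0.000578), and replicate 3 was the lowest. The study lists *Ehd3* among genes that it selected for glomerular endothelium after a filter at 100. It names this series among its own data, so the place of *Ehd3* above 100 is not independent evidence. Leaving out replicates 1, 3 or 5 gave differences of 3.61, 4.16 and 3.41, all called above.

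*Ehd4* (probe set 10486396), the paralog of *Ehd3* at the early endosome, had 7.87, 8.81 and 7.83 on replicates 1, 3 and 5. Its mean of 8.17 ± 0.56 lay 1.53 above the level (adjusted p = 0.00498). Replicate 3 was the highest array here, at 450.3 on the linear scale against 233.6 and 227.3 on replicates 1 and 5. The call was also made without replicates 1, 3 or 5 (adjusted p = 0.0134, 0.00103 and 0.012). At a level of 200, *Ehd4* was 0.53 above and not called (adjusted p = 0.114).

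*Ehd2* (probe set 10560190), the EHD protein of caveolae, had 6.41, 6.63 and 5.12 on replicates 1, 3 and 5. On the linear scale these were 85.3, 99.2 and 34.8, so no array reached 100. Its mean of 6.06 ± 0.82 was 0.59 under the level, a difference smaller than its spread over arrays, and it was not called (difference -0.59, adjusted p = 0.183). Replicate 5 was far below the other arrays, and without it the difference was -0.12 (adjusted p = 0.46). The call depends on the level here too. At a level of 50 *Ehd2* was 0.41 above and not called (adjusted p = 0.328), and at a level of 200 it was called below (difference -1.59, adjusted p = 0.012).

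*Ehd1* (probe set 10460833), the member that acts at the recycling endosome, had 5.93, 6.01 and 5.93 on replicates 1, 3 and 5. Its mean of 5.96 ± 0.05 was called below the level (difference -0.69, adjusted p = 0.00563). The arrays differed by at most 0.09. This call depends on where the level is set. At a level of 50 *Ehd1* was 0.31 above and not called (adjusted p = 0.0697), and at a level of 28.9, which 95% of the 1035 probe sets for olfactory receptors did not exceed, it was 1.10 above and called so (adjusted p = 0.00163). A call below 100 therefore does not show that *Ehd1* is silent.

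The PACSIN genes had the same value on all 3 arrays, as did 54.1% of all probe sets tested. *Pacsin2* (probe set 10430997), the broadly expressed member that shapes caveolae and endosomal tubules, was at 7.15 on each array and was called above the level (difference 0.51, adjusted p = 0.015). At a level of 200 it lay 0.49 under it and was called below (difference -0.49, adjusted p = 0.0153). *Pacsin3* (probe set 10473861), a member known from muscle, was at 4.55 on each array and was called below (difference -2.10, adjusted p = 0.000137). It was also under the olfactory receptor level of 4.85, though not called there (adjusted p = 0.0703). *Pacsin1*, the neuronal member of the family, was at 4.83 on each array and was called below as well (adjusted p = 0.000207). Since no spread was recorded between the arrays for these genes, their p-values rest on the spread that limma takes from other probe sets, and a call close to the level, as that of *Pacsin2*, is less certain than its p-value.

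**Figure D1:**
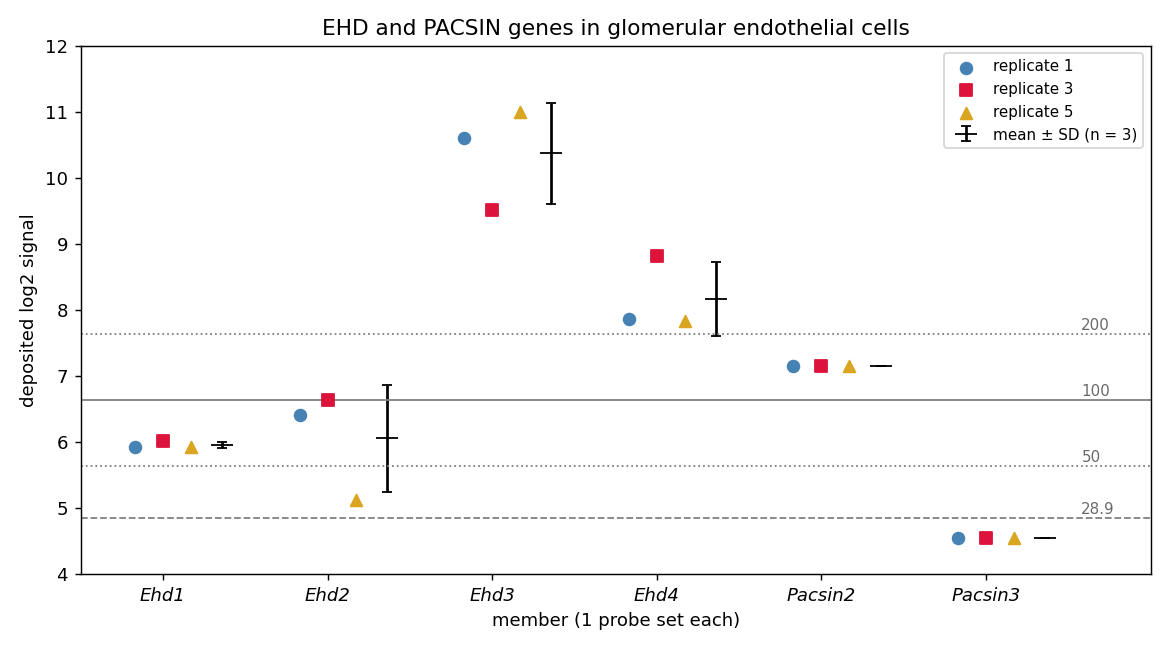
Deposited log2 signal of each of the 6 members (y axis) on replicates 1, 3 and 5 (coloured points), with the mean ± SD beside them; grey lines mark linear levels of 200, 100, 50 and 28.9, the last being the olfactory receptor level. *Ehd3* lies above 200 on every array, *Ehd2* spans 5.12 to 6.63 and *Pacsin3* lies at 4.55, under every line.

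The members differed in how their values varied from array to array. Each array came from 1 kidney, so differences between kidneys and between array preparations cannot be told apart. *Ehd2* and *Ehd3* spanned more than 1 on the log2 scale (over 2-fold) between the highest and the lowest array, which is 2 of 6 members, and 5.73% of all probe sets tested did so. Where every array reached 100 (4090 probe sets) the share was 8.97%. That set holds *Ehd3*, *Ehd4* and *Pacsin2* but not *Ehd2*, and of these members only *Ehd3* spanned more than 1. The span was 1.51 for *Ehd2* (2.85-fold), 1.49 for *Ehd3* (2.81-fold), 0.99 for *Ehd4* (1.98-fold) and 0.09 for *Ehd1*. With 3 arrays in 1 group these spans have no test. The count rests on single arrays: without replicate 3 the span of *Ehd3*, and without replicate 5 that of *Ehd2*, no longer passed 1, and 1 of 6 members remained.

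*Ehd3* and *Ehd4* moved in opposite directions on replicate 3. *Ehd3* was 2.13-fold higher on replicate 1 and 2.81-fold higher on replicate 5 than on replicate 3, whereas *Ehd4* was 1.93-fold and 1.98-fold higher on replicate 3 than on replicates 1 and 5. *Ehd2* had the same order of arrays as *Ehd4*, highest on replicate 3 and lowest on replicate 5, but for *Ehd2* the array that stood apart was replicate 5. *Ehd1* was equal on replicates 1 and 5 and only 0.09 higher on replicate 3, where 25 other probe sets shared its value. Among the 1248 probe sets with a span over 1, 47.2% were lowest and 33.7% highest on replicate 3, so neither direction was rare there. These shares cover *Ehd2* and *Ehd3* but not *Ehd1* or *Ehd4*, whose spans were under 1, and no such share was taken over all probe sets. In a bulk sample, fewer cells of a type and less RNA per cell cannot be told apart.

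Most markers of endothelium were lowest on the same array as *Ehd3*. All 12 endothelial markers were called above the level, and 8 of them were lowest on replicate 3. Of the others, *Eng* (8.91, 9.31 and 9.96 on replicates 1, 3 and 5) and *Erg* were lowest on replicate 1. *Tie1* and *Ptprb* had equal values on replicates 1 and 3. The share of all probe sets lowest on replicate 3 was not taken, so the count of markers is a description only. Their mean was 10.15, 9.77 and 10.35 on replicates 1, 3 and 5, a span of 0.58, and the part of this shift in the values of *Ehd3* was not tested. When that mean was subtracted from every value, a step added after seeing the data, the span was 0.91 for *Ehd3* (1.88-fold), 1.57 for *Ehd4* (2.97-fold) and 2.09 for *Ehd2* (4.26-fold), and 8.19% of all probe sets spanned more than 1. *Ehd3* was still lowest on replicate 3 after this step. The subtraction raises replicate 3 against the other arrays for every gene. *Ehd4* and *Ehd2* could therefore only stay highest there, with wider spans than before. *Pacsin2*, which had the same value on all arrays, was then also highest on replicate 3, with a span of 0.58.

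**Figure D2:**
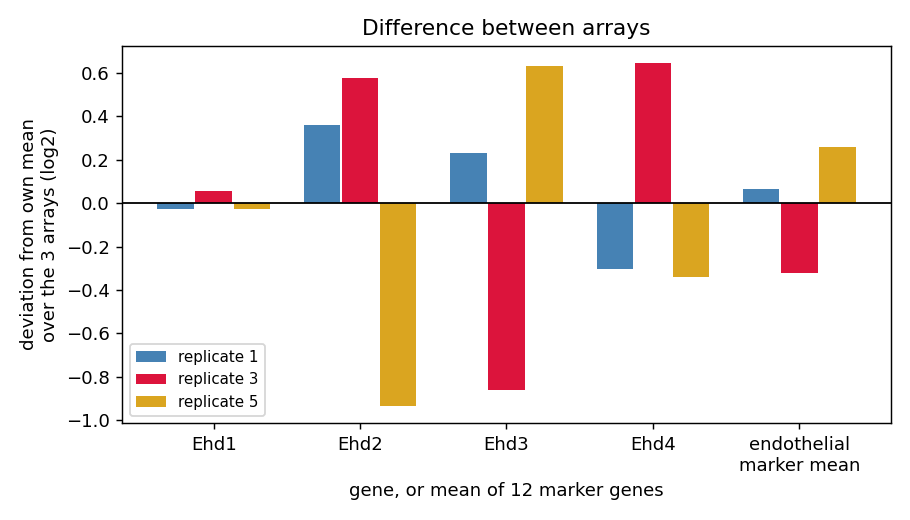
Deviation of each array from the gene's own mean over the 3 arrays, in log2 units (y axis), for the EHD genes and for the mean of 12 endothelial markers (bars, replicates 1, 3 and 5). On replicate 3 *Ehd3* was 0.86 under its mean (-0.86) and *Ehd4* 0.64 over it, while *Ehd2* was lowest on replicate 5 (-0.93).

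Markers of other cells that a sort of sieved glomeruli could hold were low. Of 6 podocyte markers measured, 5 were below the level, with *Ptpro* at 3.93, *Synpo* at 5.07 ± 0.03, *Wt1* at 5.24 and *Nphs1* at 5.47, and the other was *Podxl* at 9.86 ± 0.08, which endothelium also expresses. All 9 mesangial and smooth muscle markers were below, with *Cnn1* at 4.17, *Pdgfrb* at 4.22 ± 0.25 and *Des* at 4.58 ± 0.05. Their summed log2 level was 44.3, 42.9 and 42.5 on replicates 1, 3 and 5. Only *Itga8* among them spanned more than 1, with 6.08, 4.94 and 4.75 on these arrays. All 8 tubule, 7 leukocyte and 6 platelet and red cell markers were below as well, among them the tubule genes *Cubn* at 3.45, *Slc12a1* at 3.56 and *Lrp2* at 4.33, the leukocyte genes *Itgam* at 3.60, *Csf1r* at 4.24 and *Lyz2* at 4.29, and *Pf4* at 3.38, *Itga2b* at 5.01 and *Alas2* at 5.28 for platelets and red cells. The *Tek* promoter is also active in some blood cells, and the leukocyte gene *Ptprc* was at 4.77 ± 0.18. The summed leukocyte markers were at 32.3, 32.3 and 31.6 on replicates 1, 3 and 5, and those of platelets and red cells at 30.5, 30.7 and 29.9. *Emcn*, the endothelial sialomucin gene, was at 12.54 ± 0.42 and *Ptprb*, an endothelial phosphatase gene, at 11.36 ± 0.12. The endothelial cadherin gene *Cdh5* was at 10.75 ± 0.32, *Tek* at 10.65 ± 0.43 and *Flt1*, a VEGF receptor gene, at 10.54 ± 0.29.

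The genes whose differences between arrays were most like those of *Ehd3* were sought among the other 4089 probe sets with every array at 100 or more. Each profile was taken as deviations from its own mean, and likeness was the largest difference from *Ehd3* on any of the 3 arrays. The 6 nearest probe sets were those of *H2az1* (2 probe sets, at 0.02 and 0.04), *Asap2* (0.02), *Nrp1* (0.03), *Lsm6* (0.04) and *Hoxb5* (0.07). *Nrp1*, the VEGF co-receptor neuropilin 1, had 11.43, 10.38 and 11.81 on replicates 1, 3 and 5. *Asap2*, an activator of ARF GTPase hydrolysis, had 8.00, 6.90 and 8.36. *Hoxb5*, a homeobox transcription factor gene, had 8.71, 7.72 and 9.10. *H2az1*, whose 2 probe sets are not independent, encodes a histone variant, and *Lsm6* an RNA-binding protein of splicing particles. In all, 28 probe sets (0.685%) came within 0.2 of *Ehd3* on every array, and 91 (2.23%) came as near to *Ehd4*. A likeness over 3 arrays is weak, and it is given as a description.

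Of the 11 genes listed as partners of EHD proteins, 2 had a call above 100 (18.2%) and 8 a call below, with 1 neither, shares near the 15.8% above and 72.5% below over all probe sets tested. The median over the list was 5.60, against 5.04 over all probe sets tested. *Numb*, a cargo adaptor that binds EHD proteins and Notch, had 10.17, 9.26 and 10.36 on replicates 1, 3 and 5, a mean of 9.93 ± 0.59 (adjusted p = 0.000407). Like *Ehd3*, *Numb* was lowest on replicate 3 and spanned over 1. In this list 5 genes were lowest on replicate 3 and 1 was highest there. *Snx27*, a sorting nexin of the retromer pathway, was at 7.15 on each array (adjusted p = 0.015). *Ankfy1*, which encodes rabankyrin-5, was called neither at 6.79 ± 0.49 (adjusted p = 0.584). The lowest were *Myof*, the membrane repair protein that binds EHD2, at 3.81 ± 0.08, *Rab11fip2* at 4.64 and *Ehbp1* at 4.89 ± 0.41. *Micall1*, which recruits EHD1 to tubular endosomes, was at 5.48 on each array and was called below (adjusted p = 0.000864), and the fusion protein gene *Snap29* was below at 5.60 ± 0.59 (adjusted p = 0.0208).

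Of 24 genes of the recycling endosome, 12 passed the level of 100 with a call (50%, beside 15.8% over all probe sets tested). A further 6 were below and 6 neither, and the median of the list was 7.09. *Rab11a*, the GTPase that marks the recycling endosome, was at 10.21 ± 0.39 (adjusted p = 0.000131), and *Arf6*, a GTPase of recycling to the plasma membrane, at 9.62 ± 0.11. *Vamp3*, a fusion protein of recycling vesicles, was at 9.18 ± 0.14 and *Rab10* at 9.14 ± 0.17. The retromer gene *Vps29* was at 8.92 ± 0.11 and *Rab8b* at 8.33 ± 0.13. The lowest was *Rab11fip1*, a RAB11 effector gene, at 4.52 ± 0.04. *Rab35*, a GTPase of fast recycling, was below at 5.29 on each array, and *Rab11fip5* at 5.31 ± 0.10.

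Of 10 early endosome genes, 4 were above (40%), 4 below and 2 neither, beside 15.8% above and 72.5% below over all probe sets tested. The tethering factor gene *Eea1* was at 7.93 on each array (adjusted p = 0.000622), and the RAB5 effector genes *Appl1* and *Rabep1* were at 7.72 and 7.47 ± 0.23. *Rab5c* was above at 7.45, and *Rab5b* was called neither at 6.20 ± 0.61. Its low array was replicate 3, at 5.50 against 6.63 and 6.46 on replicates 1 and 5. *Rab5b* was the 1 gene of the list that was lowest on replicate 3. *Rabgef1*, an exchange factor gene for RAB5, was below at 4.24, as were *Vps45* at 4.93 ± 0.30 and *Rabep2* at 5.25.

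Dynamins and F-BAR proteins are the families that PACSIN proteins belong to or bind. Of 19 genes listed, 7 were above (36.8%, beside 15.8% over all probe sets tested), 9 below and 3 neither. *Dnm2*, the ubiquitous dynamin, was at 8.18 ± 0.09 (adjusted p = 0.000398). The neuronal *Dnm1* was below (adjusted p = 0.0318), and its values of 4.79, 6.38 and 4.79 on replicates 1, 3 and 5 show a single high array, the same array on which *Ehd4* was high. Replicate 3 was the highest array for 3 genes of the list and the lowest for 5. The F-BAR genes *Nostrin*, *Fnbp1l* and *Fcho2* were at 9.42 ± 0.57, 9.04 ± 0.31 and 8.75 ± 0.17. *Nostrin*, whose product draws endothelial nitric oxide synthase off the plasma membrane, had 9.67, 8.77 and 9.83 on replicates 1, 3 and 5. The study also names *Nostrin* for glomerular endothelium, so its place above 100 is likewise not independent evidence. *Wasl*, the actin regulator to which PACSIN proteins bind, was at 7.40 ± 0.40 (adjusted p = 0.0236). *Trip10*, an F-BAR gene, was above at 7.28 ± 0.07. The lowest was *Pstpip2* at 3.21 on each array, followed by *Cobl* at 4.50 and *Fcho1* at 4.60.

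The list for caveolae, where EHD2 and PACSIN2 act, held 9 genes, with 4 above and 5 below. The share above was 44.4%, beside 15.8% over all probe sets tested. *Cavin2* was at 9.40 ± 0.11 (adjusted p = 8.82e-05), *Cav1* at 8.77 ± 0.03 and *Cav2* at 8.44 ± 0.30, and on replicate 5, the low array of *Ehd2*, they were at their highest with 9.53, 8.81 and 8.73. *Cavin1* ran the other way, with 5.75, 6.26 and 5.68 on replicates 1, 3 and 5, the same order of arrays as *Ehd2*, and was below the level at 5.90 ± 0.32 (adjusted p = 0.0154). Only *Cavin1* of the list was highest on replicate 3 alone, and 2 genes were lowest there. The muscle members *Cav3* and *Cavin4* were at 3.55 and 3.56, and *Ror1* was at 4.42. *Plvap*, also on the list, was below at 5.45 on each array. *Cavin3* lay just above the level at 7.12 ± 0.17 (adjusted p = 0.029).

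Among receptors and other proteins that recycle, 3 of 9 genes were above (33.3%, beside 15.8% over all probe sets tested), 5 below and 1 neither. *Kdr*, the VEGF receptor gene, had 10.83, 9.53 and 11.18 on replicates 1, 3 and 5, the same order of arrays as *Ehd3*, and a mean of 10.51 ± 0.87 (adjusted p = 0.000737). Among the 9 genes, 2 were lowest and 1 was highest on replicate 3. Both *Kdr* and *Nostrin* are also among the endothelial markers above, so their values are not separate from the marker mean. *Itgb1*, the integrin beta1 gene, was at 10.81 ± 0.08 and *B2m*, the light chain of MHC class I, at 12.76 ± 0.28. The transferrin receptor gene *Tfrc*, the usual test cargo of EHD1, was at 3.70 on each array, *Lrp1* at 5.00, the glucose transporter gene *Slc2a4* at 4.83 and the chloride channel gene *Cftr* at 2.95. Of the 7 other genes with EH domains, 2 were above (28.6%, beside the same 15.8%), 4 below and 1 neither. The endocytic scaffold genes *Itsn2* and *Eps15* were at 8.21 and 7.72 ± 0.52 (adjusted p = 0.000326 and 0.0133), and the lowest were *Reps2* at 3.25, *Itsn1* at 5.34 and *Synrg* at 5.89.

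Over these 7 pathway lists together, 34 of 89 genes (38.2%) were called above, 41 below and 14 neither, beside 15.8% above over all probe sets tested. That 15.8% covers probe sets of every kind, among them 1035 for olfactory receptors. No share was taken over other trafficking genes. *Kdr* and *Nostrin*, also endothelial markers, are among the 34. The lists were chosen with earlier results of these data known, so this share carries no test.

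**Figure D3:**
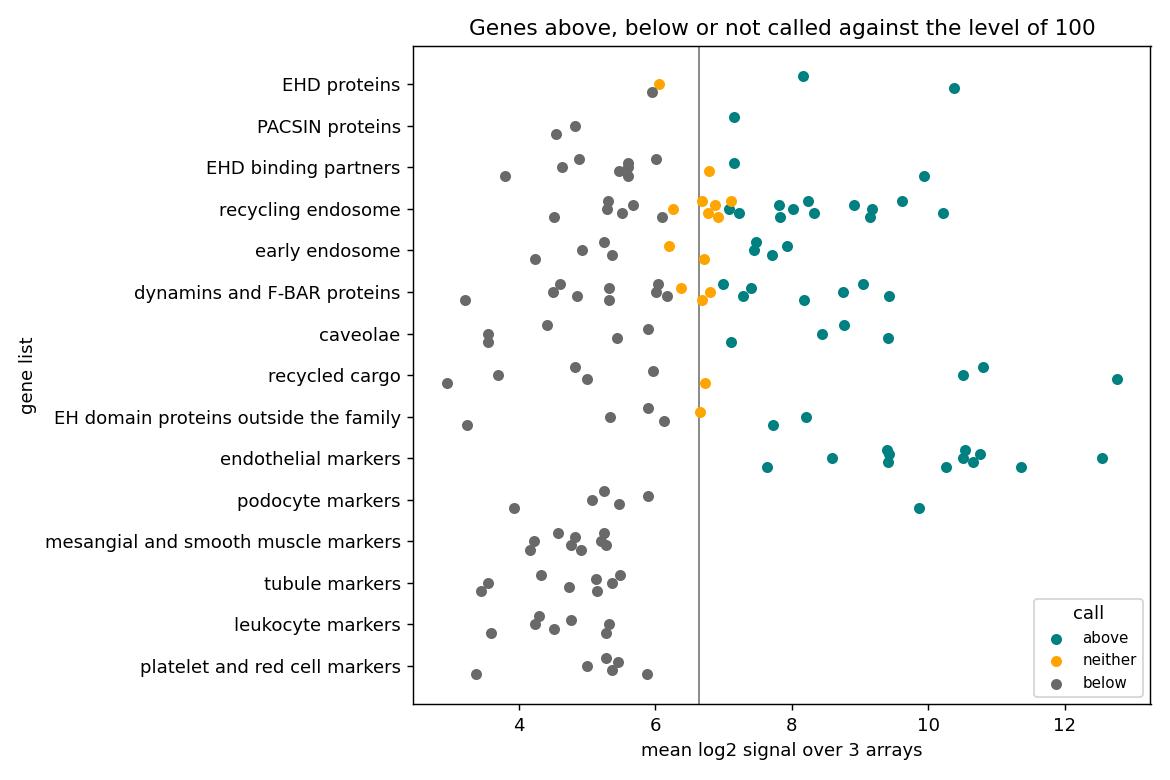
Mean log2 signal over 3 arrays (x axis) of each gene in each list (y axis), coloured by its call against the level of 100 (grey line). All 12 endothelial markers lie above the line, 2 of the 4 EHD genes do so with a call, and the markers of other cells lie below it except *Podxl*.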

How the data were processed

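RNA from sorted GEC was amplified and hybridised by the authors to Affymetrix Mouse Gene ST arrays, 1 kidney per array and 3 arrays in 1 group. Their deposited table holds log2 signals, with a row for each probe set. Affymetrix Expression Console is the tool in the submitters' processing notes, and the study names RMA for its own analysis; the sources used here do not say which arrays were normalized together. The number of arrays limits the precision. Array medians were 4.85, 4.80 and 4.79. Of 35557 probe sets, 21789 name 1 gene, 1621 several and 12147 none in the annotation, and the first were tested.

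An intercept-only limma fit (limma 3.58.1, R 4.3.3) tested each mean against log2 of 100 at an adjusted p threshold of 0.05. Its variance prior came from the 4406 probe sets with 3 distinct values (tolerance 1e-09), because 54.1% were identical on all arrays. On simulated data, 31.6% of 57 probe sets identical on all arrays were called at the level itself. These ties were made by giving every array the mean of 3 noisy values. The real ties need not arise so, and the share is no rate for them. Of 43 simulated without ties, 4.65% were called. Probe sets with only some arrays equal, such as that of *Ehd1*, were not simulated. For list genes identical on all arrays, such as *Snx27*, p-values rest on the spread of other probe sets. Their calls close to the level are less certain than these p-values. P-values cover no more than the variation among these 3 samples.

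Where several probe sets name a gene, that with the highest mean was used. Named genes are the members, *Pacsin1*, up to 6 highest genes above and 3 lowest below in each list, and the 6 patterns most like *Ehd3*; some others were named after their values were seen. Members and lists were chosen with earlier results of these data known. Alternatives were another prior, other levels, normalizations, filters and left-out arrays. Protein features were not analysed here.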

Additional observations from a re-analysis of the deposited data

How the results depend on the processing

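The number of members called above the level was 3 of 6, and it stayed at 3 with the ordinary variance prior, a level of 50, a median shift, quantile normalization, all probe sets tested, a filter on low values and without any single array (range 3 to 3). It was 1 at a level of 200 and 5 at the olfactory receptor level, and the number of pathway genes above, 34 of 89, was 20 and 69 at these levels. Without single arrays that number ranged between 31 and 36. The number of members with a span over 1 was 2; it ranged between 1 and 2 without single arrays (1 without replicate 3 and 1 without replicate 5) and was 3 after quantile normalization. Relative to the level, *Ehd1* turned to 0.31 at a level of 50 and 1.10 at the olfactory receptor level, *Ehd2* turned to 0.41 at a level of 50 (not called, adjusted p = 0.328) and to 1.20 at the olfactory receptor level, where it was called above (adjusted p = 0.0342), and was called below at a level of 200 (-1.59, adjusted p = 0.012), and *Pacsin2* turned to -0.49 at a level of 200. These changes follow from the level itself. No paired analysis was possible because the samples form 1 group.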

Other observations

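The value of *Pacsin3* was not particular to it. On replicates 1, 3 and 5, 183, 182 and 178 other probe sets that name a single gene held the very same value of 4.55 (within 1e-09). The value of *Ehd2* on replicate 3 was shared by 10 other probe sets and that of *Ehd1* on replicate 3 by 25, whereas no other probe set had the value of *Ehd3* on any of the 3 arrays.

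The 6 probe sets nearest to *Ehd4* in their differences between arrays, a search made after its values were seen, were those of *Kif1c*, *Cenpb*, *Gnpnat1*, *Nudt21*, *Mnat1* and *Nrm*, at 0.02 to 0.03. *Kif1c*, which encodes a kinesin motor, had 10.43, 11.36 and 10.41 on replicates 1, 3 and 5, and *Cenpb*, which encodes a centromere protein, had 7.30, 8.27 and 7.30.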
